A study of Mus musculus with 3 samples.

Results

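The kinases related to ATM that act on damaged DNA, and the p53 checkpoint below them, were followed through 10 genes in the long-term hematopoietic stem cells (LT-HSCs) of mouse bone marrow: Atm, Atr, Prkdc, Smg1, Trrap, Chek1, Chek2, Trp53, Mdm2 and Mdm4. Every probe that the scanner files assign to 1 of these genes was taken, without regard to its signal, which gave, for these 10 of the 37072 gene names on the array, 33 of the 56600 probes read on all 3 arrays. Each genotype was measured on 1 microarray of sorted LT-HSC RNA from C57BL/6J mice given as 11 weeks old, labelled WT, AtmsKO and Atmp38dKO. The mutants carried CAG-CreERT2 with Atm flox/flox alone, or with both Atm flox/flox and p38α flox/flox, and all 3 groups, the Cre-negative floxed WT mice included, had received tamoxifen. The CAG promoter drives CreERT2 broadly, so deletion was not restricted to blood cells, and the number of mice behind each array was not given in the sources used here. The labels give 11 weeks, whereas the series design places tamoxifen at about 5 weeks of age and the analysis 4 weeks later. With 1 array per genotype there is no spread between mice, and every difference compares those arrays, not the conditions.

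ATM, ATR and DNA-PKcs (encoded by Prkdc) are large serine/threonine kinases of the phosphatidylinositol 3-kinase-related family, which are activated by broken or stalled DNA and pass the signal to the kinases CHK2 and CHK1 and to p53. SMG1 belongs to the same family but is best known for nonsense-mediated mRNA decay, and TRRAP has the family fold without kinase activity and serves as a scaffold of histone acetyltransferase complexes. p53 is kept low by MDM2, a ubiquitin ligase, and by MDM4, its relative, and these controls act largely on protein, which an mRNA array does not read. ATM is known for its part in the maintenance of HSCs, from work on germ line loss, in which reactive oxygen species and p38 MAPK activity were raised, and the mice here lost Atm by tamoxifen after birth.

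The probes on which the results turn are printed 5′ to 3′ with their position in mouse build mm9, as the scanner files give them. Over their 60 bases, both Atm probes hold a stop triplet in each of the 3 reading frames of the printed strand, so neither can lie wholly within coding sequence, and the first 30 bases are shown with the stop triplets in capitals. That stretch holds stops in 2 of the frames of probe 1, whose remaining frame is stopped in the bases not shown, and in all 3 frames of probe 2. Probe 1 lies at chr9:53247691-53247750 and probe 2, 1.82 kb further 3′, at chr9:53245871-53245930, both on the minus strand.
Atm probe 1: TGAcTGAtcaccaccTAAatatTAGtattt
Atm probe 2: tTGAaaggTGAaaaagacTGAgtTAGaaaa
The deleted exons were not given in the sources used here, so these probes check the deletion through the amount of message alone.

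For Atr, 1 of 8 probes lists a RefSeq transcript, probe 8 at chr9:95851956-95852015 on the plus strand, the most 3′ of the set. It is shown because the largest difference measured on both arrays outside Atm was found there, and 2 of its 3 frames are open.
Atr probe 8: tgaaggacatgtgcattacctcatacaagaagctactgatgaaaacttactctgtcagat
Mdm4 probes 2 (chr1:134907660-134907719) and 3 (chr1:134905734-134907665, across a splice junction) are on the minus strand, both list RefSeq transcripts and gave nearly the same differences. They are printed because they are not independent of each other: the last 6 bases of probe 2 and the first 6 of probe 3, in capitals, are the same bases of the message.
Mdm4 probe 2: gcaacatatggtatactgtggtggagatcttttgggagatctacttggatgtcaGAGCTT
Mdm4 probe 3: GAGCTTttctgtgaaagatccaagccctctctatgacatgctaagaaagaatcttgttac

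Signals are the background-subtracted intensities of the scanner software, each with the error the software attaches to it. That error covers 1 array, is nearly a fixed share of the signal at bright probes and does not measure variation between arrays. Of the probes measured on both arrays of a pair, 26.5 to 29.3% differed by more than 2 times the combined error. Differences are on the log2 scale after each array was set to its own 75th percentile signal, which was 102 for WT, 96.2 for AtmsKO and 118 for Atmp38dKO. Where a probe was not well above background on 1 array, the difference is called a bound. It takes the dimmest signal well above background there, or the probe's own signal where that was higher. Of the 33 member probes, the WT, AtmsKO and Atmp38dKO arrays had 28, 29 and 31 well above background; 27 were so on all 3 and 2 on none. A difference was counted when it reached 2-fold and the brighter array was well above background. Over all probes, 68.9 to 77.7% were well above background, and repeat spots of a probe on 1 array had a median SD of 0.05 log2 units.

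The cells and labels were checked first. Marker signals, sums and medians are given as read, without setting each array to its reference signal. That reference was 102 for WT, 96.2 for AtmsKO and 118 for Atmp38dKO. A higher sum on Atmp38dKO therefore need not mean a larger share of that message. All 10 LT-HSC markers were well above background on every array, with summed signals of 7054 to 7732, mostly from Kit and Hlf. The markers did not move together. In WT, AtmsKO and Atmp38dKO, Hoxb5 read 91.4, 107 and 34.0, and the brighter Fgd5 probe 198, 146 and 69.8. Kit, at its brightest probe, read 2652, 2773 and 3248, and Ly6a read 488, 573 and 559. The list medians were 355, 373 and 316. Of 4 genes for surface proteins that these cells are sorted or known to lack, Il7r was not well above background, whereas Cd48, Flt3 and Cd34 mRNA were. All 6 granulocyte markers were well above background, with unscaled summed signals of 2644 (WT), 2971 (AtmsKO) and 3587 (Atmp38dKO). So were all 4 megakaryocyte markers, with 1351, 2664 and 1953, mostly from Pf4 at 1020, 2366 and 1536. Gp9 read 108, 103 and 125, Gp1ba read 54.8, 74.4 and 126, and the list medians were 138, 111 and 146. The megakaryocyte markers include Itga2b, which encodes CD41, at 169, 120.2 and 167, although the methods sort CD41- cells. Sums were 238 to 381 for the erythroid markers (4 or 5 of 5 well above background), 300.2 to 401 for B cell markers (4 of 4), 89.7 to 149 for T cell markers (2 of 3) and 2151 to 2632 for the 3 macrophage markers on the array. Mast cell and basophil markers summed to 26.9 to 31.7, with Ms4a2 not well above background on any array. The part of these cells in the differences described here was not tested, and in RNA from a sorted population fewer cells of a type cannot be told apart from less RNA per cell. Mapk14, which encodes p38α, was not lower on the array labelled Atmp38dKO. In WT, AtmsKO and Atmp38dKO, its probe 1 read 469 ± 46.9, 558 ± 55.8 and 616 ± 61.6, and its probe 2 read 295 ± 29.5, 260.4 ± 26.1 and 345 ± 34.6. The Atmp38dKO-to-WT differences were 0.18 ± 0.20 and 0.01 ± 0.20 log2 units, so on this measure the array labelled Atmp38dKO goes against its label, and a direction drawn from it rests on the label alone. The deleted part of Mapk14 was not given in the sources used here, and a probe outside it would not check the label.

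**Figure D1:**
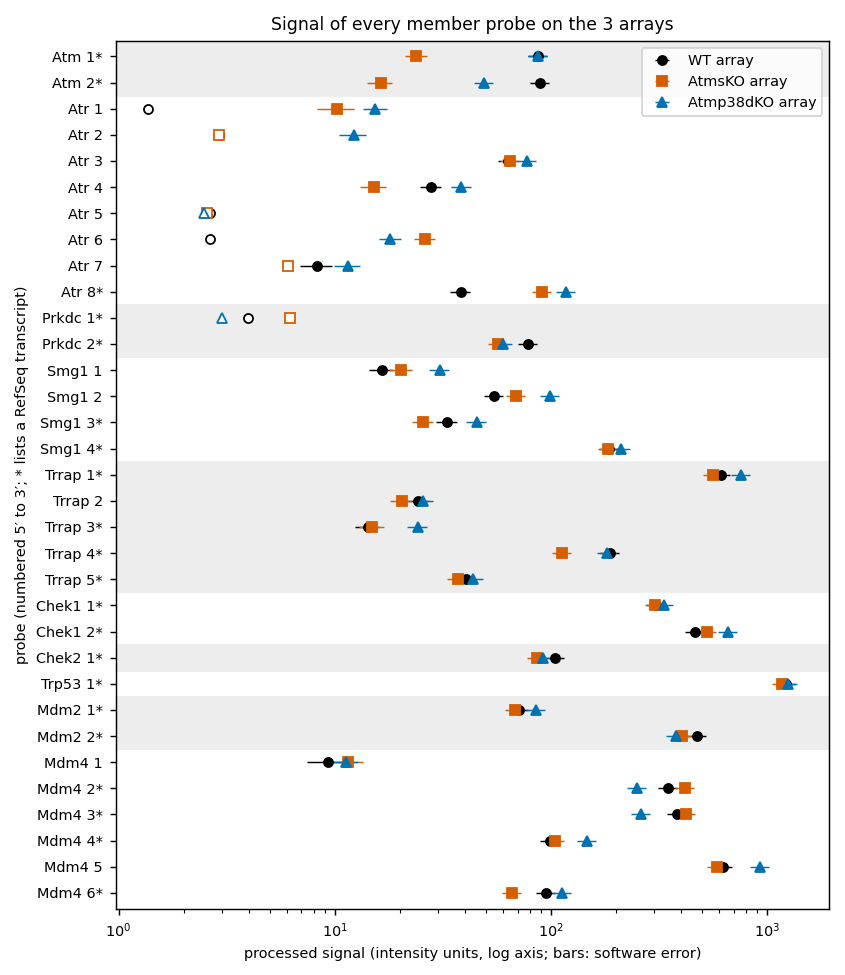
Processed signal (intensity units, log axis) of all 33 member probes on the WT (circles), AtmsKO (squares) and Atmp38dKO (triangles) arrays; bars are the software error, open symbols mark signals not well above background, and * marks probes that list a RefSeq transcript. The AtmsKO array lies apart to the left at both Atm probes, whereas the 3 arrays nearly coincide at Trp53.

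Atm, the deleted gene, was lowest on the AtmsKO array at both of its probes. Probe 1 read 87.0 ± 8.78 in WT, 23.9 ± 2.74 in AtmsKO and 86.5 ± 8.72 in the array labelled Atmp38dKO. Probe 2 read 88.8 ± 8.97, 16.3 ± 2.20 and 49.0 ± 5.04 in the same order. Thus the WT and AtmsKO signals were well apart at both probes, but the Atmp38dKO signal was at the WT level at probe 1 and between the other two at probe 2.

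Relative to WT, the AtmsKO array was lower by 1.79 ± 0.22 log2 units at probe 1 (log2 difference -1.79) and by 2.37 ± 0.24 at probe 2 (-2.37). The corresponding Atmp38dKO differences were -0.22 ± 0.21 and -1.07 ± 0.21. Between the mutants, Atm was higher on the array labelled Atmp38dKO by 1.57 ± 0.22 and 1.30 ± 0.25. The probes therefore differed from each other by more than their errors in the Atmp38dKO-to-WT comparison, in which only probe 2 passed 2-fold. Atm message was thus not lowered to the same extent on both mutant arrays, although the labels give both genotypes the same floxed Atm alleles. Under normexp, a background correction that pulls dim signals together, the AtmsKO-to-WT differences were -0.81 and -0.86 and neither reached 2-fold.

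Over all members, AtmsKO against WT gave 3 probes at least 2-fold higher and 2 lower among 30 that could be compared, against 4.29% higher and 4.74% lower of all 42936 probes compared. The 2 lower probes were those of Atm, and the 3 higher ones were all of Atr. The array labelled Atmp38dKO gave, against the same WT array, 3 higher probes and 1 lower among 31, against 4.69% and 5.07% of 45516 probes. Again the lower probe was of Atm and the higher ones of Atr. Because both comparisons share the WT array, their values for a probe are not independent. Between the mutants, 3 probes were higher on the Atmp38dKO array and 1 was lower among 31, against 4.39% and 4.07% of 44793 probes. The higher probes were both Atm probes and Atr probe 4, and the lower one was Mdm4 probe 2. With 30 or 31 probes compared, the background shares amount to between 1 and 2 probes in each direction. Median differences of the member probes were 0.02, 0.05 and 0.08 log2 units in the 3 comparisons, beside 0.003, 0.02 and -0.002 over all probes. Under normexp no member probe reached 2-fold in any comparison.

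The threshold moved these counts as it moved the background. At 1.5-fold, AtmsKO against WT had 3 higher and 4 lower member probes (11.0% and 11.8% of all probes), Atmp38dKO against WT had 6 and 4 (12.3% and 12.2%), and Atmp38dKO against AtmsKO had 5 and 3 (11.5% and 9.99%). At 4-fold, AtmsKO against WT kept Atr probe 6 as higher, by a bound, and Atm probe 2 as lower (0.829% and 0.852% of all probes). No member probe was 4-fold apart in Atmp38dKO against WT (0.609% and 0.934%) or in Atmp38dKO against AtmsKO (0.48% and 0.842%).

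**Figure D2:**
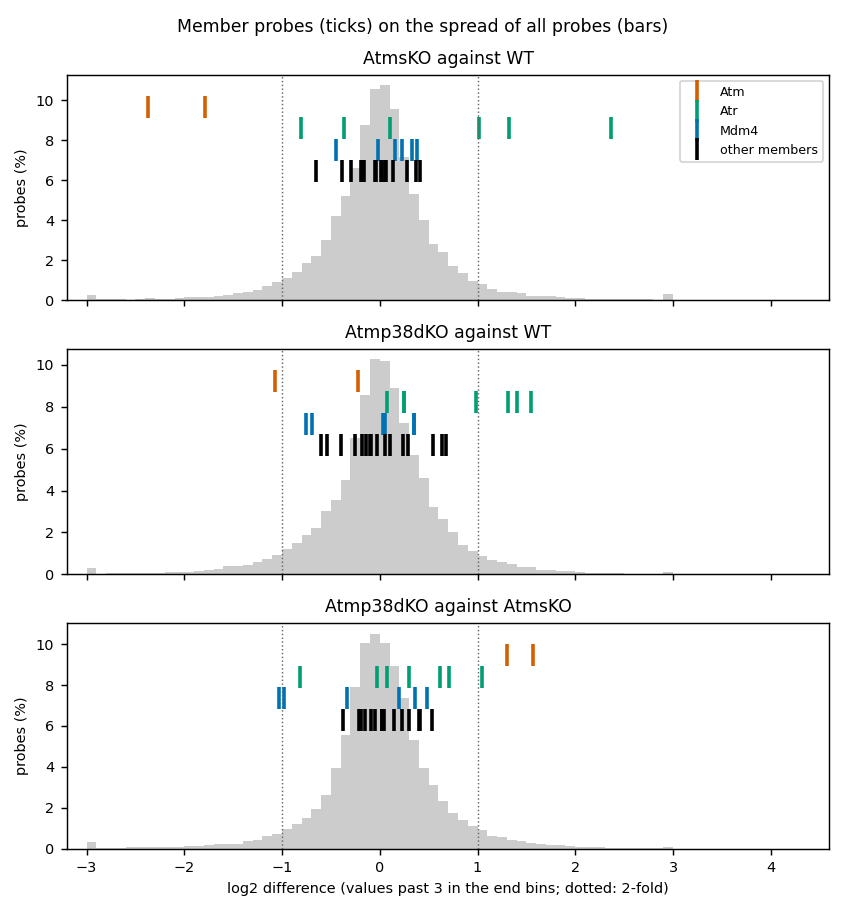
Share of all compared probes (bars, percent) by log2 difference for the 3 comparisons, with each member probe as a tick at a height that separates genes and carries no value. Both Atm ticks fall outside the dotted 2-fold line in AtmsKO against WT, and in both comparisons with WT the ticks beyond the line on the right are those of Atr.

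The related kinases other than Atm, namely Atr, Prkdc, Smg1 and Trrap, were next examined for a change where Atm was low. Of their 19 probes, 16 could be compared between AtmsKO and WT, of which 3 were at least 2-fold higher, none was lower and 13 were within 2-fold, with a median of 0.01, beside 4.29% higher over all probes. Of the 3 higher, 2 were bounds, from probes not well above background on WT. On the array labelled Atmp38dKO, 3 of 17 were higher than on WT, 2 of them again as bounds, and none was lower, with a median of 0.25, beside 4.69% higher over all probes. Restricted to the 8 comparable probes that list RefSeq transcripts, 1 was higher and none lower in each comparison with WT, and that probe was of Atr.

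Atr, the kinase that responds to single-stranded DNA at stalled forks, gave probes that did not move together. At probe 8 the signals were 38.1 ± 4.00 in WT, 90.4 ± 9.15 in AtmsKO and 117 ± 11.7 in the array labelled Atmp38dKO. Both mutant arrays were higher than WT there, by 1.32 ± 0.21 and 1.40 ± 0.21 log2 units, and differed from each other by 0.08 ± 0.21. Among all probes with a mean signal of 20 to 200, 4.07% were at least 2-fold higher in AtmsKO against WT and 4.46% in Atmp38dKO against WT.

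Atr probe 3, 29.3 kb from the first probe, read 63.4 ± 6.46, 64.4 ± 6.60 and 77.4 ± 7.82, with differences of 0.10 ± 0.21 and 0.07 ± 0.21 from WT. Probe 4 read 27.9 ± 3.07, 15.2 ± 2.10 and 38.4 ± 4.02, with AtmsKO at -0.80 ± 0.26 and Atmp38dKO at 0.25 ± 0.22 log2 units from WT. Hence of the 3 Atr probes measured on all arrays, 1 was higher on the AtmsKO array than on WT, 1 was lower and 1 was within its error.

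The remaining Atr probes were dim. Probe 1 was too dim on WT to stand well above background and read 10.2 ± 1.99 in AtmsKO and 15.4 ± 1.94 in Atmp38dKO, at least 2.03-fold and 2.49-fold higher. Probe 6 was likewise dim on WT and read 26.1 ± 2.94 and 18.1 ± 2.11, at least 5.16-fold and 2.92-fold higher. Both were above WT on each mutant array, by bounds. Probe 2 was well above background only in Atmp38dKO, at 12.2 ± 1.76, where the bound against WT was 0.98 log2 units. Probe 7 read 8.30 ± 1.43 in WT and 11.46 ± 1.58 in Atmp38dKO, and its AtmsKO signal was not well above background. Probe 5 was not well above background on any array. None of probes 1 to 7 lists a RefSeq transcript, and which Atr message each of them reads was not tested. The SD between the measured Atr probes was 1.07 log2 units in AtmsKO against WT (3 probes) and 0.61 in Atmp38dKO against WT (4 probes), whereas the median over all genes with at least 2 such probes was 0.31 and 0.33.

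**Figure D3:**
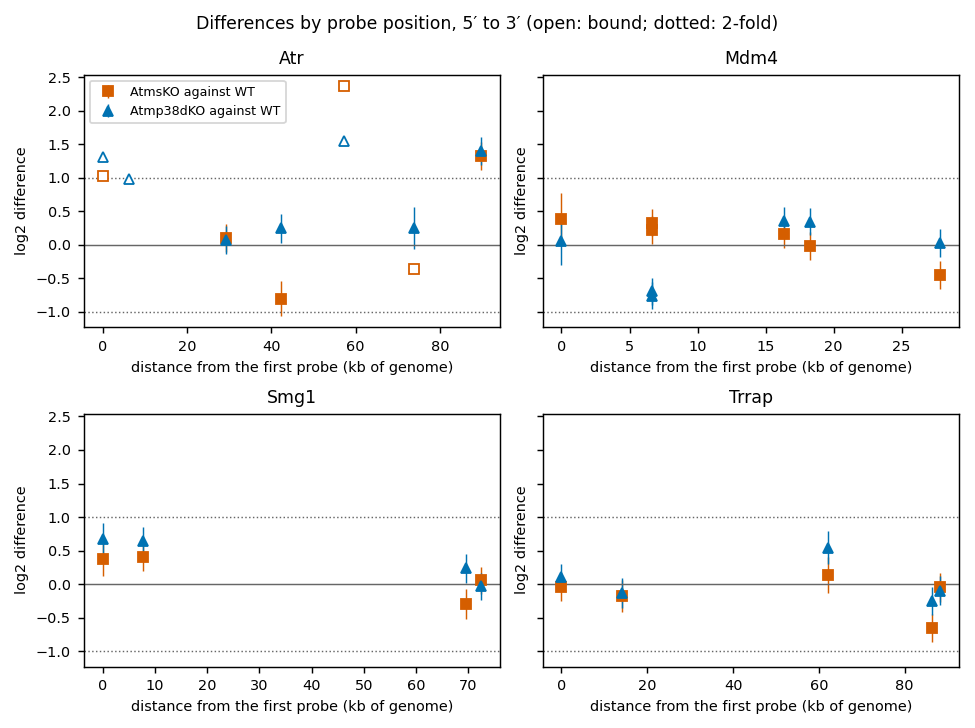
Log2 difference from WT of each probe of Atr, Mdm4, Smg1 and Trrap against its distance along the gene from the most 5′ probe (kb of genome), for AtmsKO (squares) and Atmp38dKO (triangles), with software errors; open symbols are bounds. Atr probes differ in direction along the gene, and the paired low triangles of Mdm4 are the adjoining probes 2 and 3.

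Prkdc, which encodes the catalytic subunit that joins broken ends with the Ku proteins, was measured by 1 of its 2 probes. Probe 2, across a splice junction, read 78.5 ± 7.95 in WT, 56.9 ± 5.86 in AtmsKO and 60.2 ± 6.12 in the array labelled Atmp38dKO. Both mutant signals were below WT, by log2 differences of -0.39 ± 0.21 and -0.60 ± 0.21, and neither reached 2-fold. Probe 1 was not well above background on any array.

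Smg1 was within 2-fold at all 4 probes in every comparison. The most 5′ probe read 16.5 ± 2.08, 20.2 ± 2.49 and 30.5 ± 3.28 in WT, AtmsKO and Atmp38dKO, and the next read 54.5 ± 5.61, 68.7 ± 7.03 and 98.6 ± 9.93. At both, WT was lowest and Atmp38dKO highest, with differences from WT of 0.37 ± 0.25 and 0.41 ± 0.21 for AtmsKO and 0.67 ± 0.24 and 0.64 ± 0.21 for Atmp38dKO. The 3′ probes, which list RefSeq transcripts, did not share this order. Probe 3 read 33.0 ± 3.54, 25.6 ± 2.93 and 45.3 ± 4.68, and probe 4 read 186 ± 18.6, 183 ± 18.4 and 211 ± 21.1. At probe 4 the arrays were within error of each other, with differences from WT of 0.06 ± 0.20 and -0.03 ± 0.20.

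Trrap was likewise within 2-fold at all 5 probes. Probe 1 read 609 ± 60.9, 560.2 ± 56.0 and 758 ± 75.8 in WT, AtmsKO and Atmp38dKO, with differences from WT of -0.04 ± 0.20 and 0.10 ± 0.20. Probe 4 departed furthest in AtmsKO, at 186 ± 18.7, 112 ± 11.3 and 182 ± 18.2, with AtmsKO at -0.66 ± 0.21 and Atmp38dKO at -0.25 ± 0.20 log2 units from WT. Probe 5, 2 kb further 3′, read 40.3 ± 4.19, 37.0 ± 3.93 and 43.8 ± 4.50, so the low AtmsKO value at probe 4 was not matched by its neighbour. Probe 3 was highest on the Atmp38dKO array, at 24.1 ± 2.62 against 14.3 ± 1.81 on WT and 14.9 ± 1.96 on AtmsKO. Probe 2 read 24.3 ± 2.69, 20.4 ± 2.44 and 25.7 ± 2.79.

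The checkpoint kinases showed no probe past 2-fold in any of the 3 comparisons. Chek1, the target of ATR, read 306 ± 30.6, 303 ± 30.3 and 333 ± 33.4 at probe 1 in WT, AtmsKO and Atmp38dKO, and 461 ± 46.1, 529 ± 52.9 and 656 ± 65.6 at probe 2. The differences from WT were 0.06 ± 0.20 and 0.27 ± 0.20 for AtmsKO and -0.09 ± 0.20 and 0.29 ± 0.20 for Atmp38dKO. Chek2, the target of ATM, read 104 ± 10.5, 86.3 ± 8.72 and 91.7 ± 9.23, with log2 differences of -0.19 ± 0.21 and -0.40 ± 0.21. None of these differences exceeded 2 times its error. Over all probes measured on both arrays of the pair, 26.5% exceeded it in AtmsKO against WT and 29.3% in Atmp38dKO against WT. Chek1 message is known to be more abundant in cycling cells, so 10 proliferation genes, from Mki67 to Birc5, are given beside it. None of their 19 probes was past 2-fold in either comparison with WT. Their median difference was 0.29 log2 units in AtmsKO against WT, with 15 of 19 above 0, beside 21600 of 42936 over all probes. In Atmp38dKO against WT the median was -0.02, with 8 of 19 above 0, beside 23546 of 45516. Because the 19 probes come from 10 genes, they are not separate readings. The part of these genes in the Chek1 values was not tested. Between the mutants the median was -0.26, and 1 probe, of Ccnb1, was past 2-fold, lower on Atmp38dKO.

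Trp53, which encodes p53, was nearly level over the arrays. Its only probe read 1215 ± 122 in WT, 1165 ± 117 in AtmsKO and 1246 ± 125 in the array labelled Atmp38dKO. The differences from WT were 0.02 ± 0.20 and -0.18 ± 0.20, each within its error.

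Mdm2, at once a p53 target and the ligase that marks p53 for degradation, differed by less than 2-fold at both probes. Probe 1 read 70.8 ± 7.17, 68.4 ± 6.96 and 85.0 ± 8.56 in WT, AtmsKO and Atmp38dKO, with differences from WT of 0.03 ± 0.21 and 0.05 ± 0.21. Probe 2, 16.2 kb further 3′, read 474 ± 47.4, 402 ± 40.2 and 380 ± 38.0, which put WT highest, with log2 differences of -0.16 ± 0.20 and -0.54 ± 0.20.

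Mdm4, which inhibits p53 without a strong ligase activity of its own, gave opposite directions at different probes on the array labelled Atmp38dKO. Probe 2 read 349 ± 34.9 on WT, 416 ± 41.6 on AtmsKO and 250.0 ± 25.02 on Atmp38dKO, and the adjoining probe 3 read 381 ± 38.1, 421 ± 42.2 and 262 ± 26.2. At both, the Atmp38dKO array was lowest, by log2 differences of -0.69 ± 0.20 and -0.76 ± 0.20 from WT and of -1.03 ± 0.20 and -0.98 ± 0.20 from AtmsKO. The pair lies side by side on the message and counts as 1 stretch of the message rather than as 2 independent readings.

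Downstream of that pair the Atmp38dKO array was not low. Mdm4 probe 4, the next in 3′ direction, read 98.5 ± 9.94, 104 ± 10.5 and 146 ± 14.7, and probe 5 read 625 ± 62.6, 586 ± 58.6 and 923 ± 92.3. There the Atmp38dKO array was highest, with differences from WT of 0.35 ± 0.21 and 0.35 ± 0.20. Probe 6 read 95.2 ± 9.60, 65.9 ± 6.76 and 113 ± 11.3, with AtmsKO lowest, and its Atmp38dKO difference from WT of 0.03 ± 0.21 was -0.04 under normexp. Probe 1 was dim, at 9.31 ± 1.87, 11.53 ± 1.99 and 11.2 ± 1.62. The SD between the 6 Mdm4 probes was 0.67 log2 units in Atmp38dKO against AtmsKO, beside a median of 0.31 over all genes with at least 2 measured probes.

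**Figure D4:**
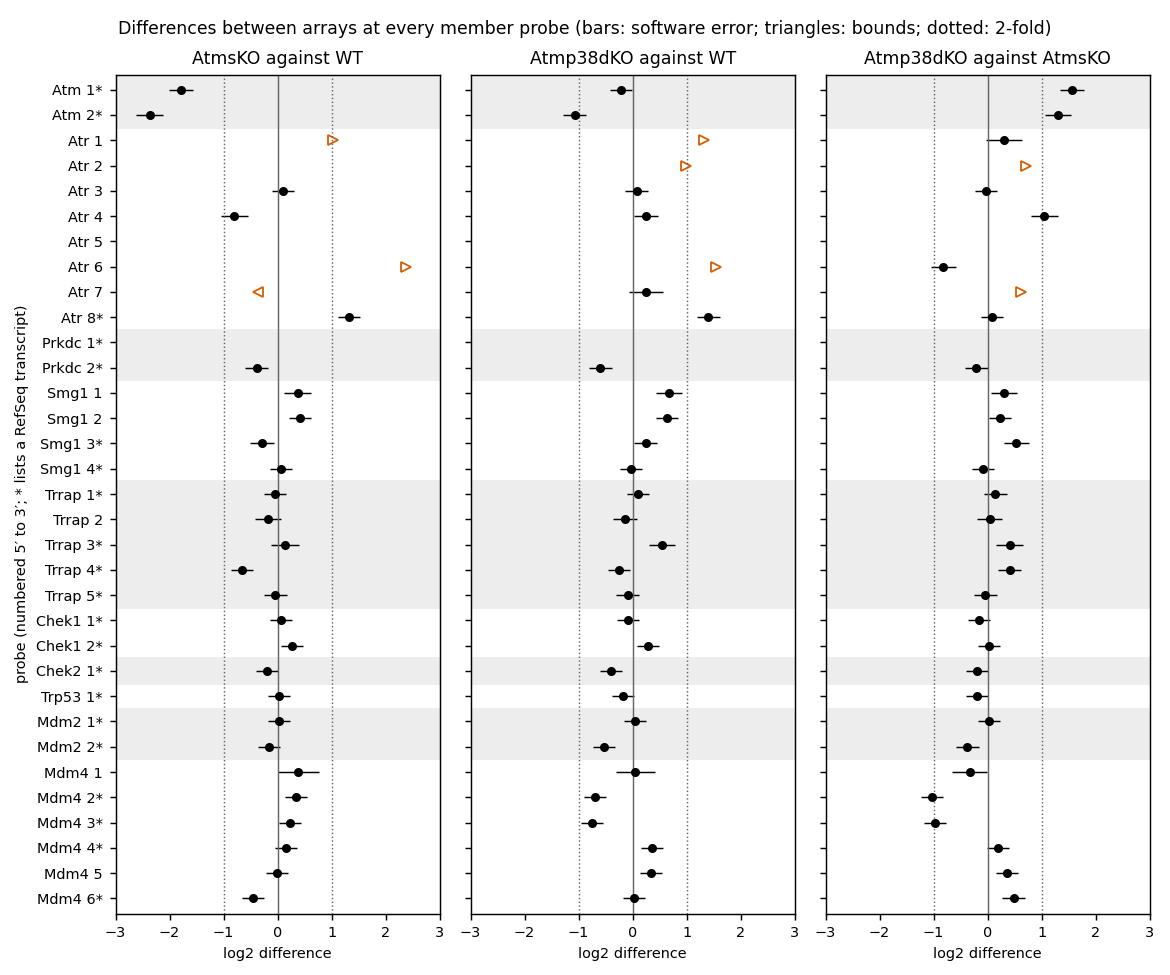
Log2 difference between arrays at all member probes for the 3 comparisons, with software errors (bars) and the 2-fold lines (dotted); open triangles are bounds that point in their direction. Atm stands out to the left in AtmsKO against WT and to the right between the mutants, Atr probes 1, 6 and 8 pass 2-fold on both mutant arrays against WT, and the Trp53, Chek1 and Chek2 probes lie within 2-fold throughout.

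The 27 member probes measured on every array were also ordered over the arrays. The highest scaled signal was that of WT for 8, of AtmsKO for 7 and of Atmp38dKO for 12, and each array had the lowest for 9. Over all 37241 such probes the highest value was on these arrays in 31.9, 34.4 and 33.6%, and the lowest in 35.4, 31.2 and 33.4%.

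The wider pathway was read through a list of 60 genes that sense damage, load or assist the same kinases, or act below p53, all of them on the array with 119 probes. Of 113 probes compared, 5 were at least 2-fold higher and 6 lower in AtmsKO against WT, and 3 were higher and 3 lower in Atmp38dKO against WT. Between the mutants, 3 of 112 were higher and 4 lower. Medians were -0.004, 0.01 and 0.01 log2 units. None of these shares exceeded the share over all probes given above by more than 1 percentage point.

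By role, the p53 targets held 3 of the 6 lower probes in AtmsKO against WT, among 10 probes, with a median of -0.14 and none higher, beside 4.74% lower over all probes. The 3 were of Cdkn1a and Gtse1, and 4 of the 10 were above 0. Cdkn1a, the p21 inhibitor of cyclin-dependent kinases, had the lower value on both mutant arrays at all 3 probes. Its probe 3, the brightest, read 213 ± 21.4 on WT, 94.7 ± 9.59 on AtmsKO and 135 ± 13.5 on Atmp38dKO, with log2 differences of -1.10 ± 0.21 and -0.88 ± 0.20. Probe 2 read 57.5 ± 5.85, 48.0 ± 4.96 and 38.8 ± 4.00, with differences of -0.18 ± 0.21 and -0.78 ± 0.21. Probe 1 read 22.6 ± 2.54 in WT and 9.10 ± 1.43 in Atmp38dKO (-1.52 ± 0.28). Its AtmsKO signal, 6.18 ± 1.47 and not well above background, was 3.46-fold lower than WT by its own value. Gtse1, whose product restrains p53 in G2 phase, read 69.4 ± 7.05, 24.6 ± 2.86 and 44.9 ± 4.65, lower on AtmsKO by a log2 difference of -1.42 ± 0.22 and on Atmp38dKO by -0.84 ± 0.21. The targets above 0 on AtmsKO, given as the counterpart of these, were Sesn2 at 0.70 ± 0.20, both Bax probes at 0.45 ± 0.21 and 0.32 ± 0.20, and Pmaip1 at 0.10 ± 0.23. Bax and Pmaip1 encode proteins that promote apoptosis, and none of these differences reached 2-fold.

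Mtor, the family member that senses nutrients, read 29.6 ± 3.21, 13.8 ± 1.97 and 20.05 ± 2.30 at probe 1 and 45.4 ± 4.67, 36.0 ± 3.80 and 63.9 ± 6.46 at probe 2. Its AtmsKO differences from WT were -1.03 ± 0.26 and -0.26 ± 0.21, and on the Atmp38dKO array the probes took opposite signs, at -0.78 ± 0.23 and 0.28 ± 0.21. Among the CDC25 phosphatases and WEE1, which set entry into mitosis, 1 of 8 probes was higher in AtmsKO against WT. That was Cdc25c, at 24.4 ± 2.75, 97.4 ± 9.84 and 53.9 ± 5.52, a difference of 2.08 ± 0.22 from WT and of -1.14 ± 0.21 between the mutants.

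Among the genes of TRRAP complexes, Kat2a read 142 ± 14.3, 393 ± 39.3 and 121 ± 12.1 at probe 1, higher on AtmsKO by 1.54 ± 0.20, but 67.0 ± 6.82, 84.5 ± 8.57 and 131 ± 13.1 at probe 2, a difference of 0.41 ± 0.21. Kat2b, its paralog, read 45.2 ± 4.68, 31.7 ± 3.46 and 25.8 ± 2.81 and was lower on Atmp38dKO by a log2 difference of -1.02 ± 0.22. Ep400 was at least 2.65-fold lower on the Atmp38dKO array at its dim probe 2, which read 11.3 ± 1.60 on WT, whereas its bright probe 1 differed by -0.10 ± 0.20. Tti1, of the complex that helps these large kinases fold, was higher on Atmp38dKO than on AtmsKO at probe 2 by 1.69 ± 0.23, with differences of 0.16 ± 0.21 and 0.03 ± 0.21 at its other probes.

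The genes of the remaining roles that had a probe past 2-fold are named after their values were seen, since other probes of each went the opposite way. In AtmsKO against WT, the break sensors and adaptors had none higher and 1 lower of 19 probes, at Brca1 probe 3, and the ATR activators 1 higher and 1 lower of 19, both of Topbp1. Topbp1 probe 3 read 6.67 ± 1.48, 17.8 ± 2.31 and 36.5 ± 3.83, 2.82-fold and 4.71-fold higher than WT, whereas probe 1 read 36.6 ± 3.86, 16.7 ± 2.18 and 28.7 ± 3.09, a log2 difference of -1.05 ± 0.24 in AtmsKO. The kinase assembly factors had 1 higher of 12 (Telo2 probe 1, 1.09 ± 0.21). The p53 regulators and relatives had 1 higher of 14 (Rfwd2 probe 2, 2.81-fold from a WT signal not well above background). Neither the 9 compared end joining probes nor the 12 of SMG1 partners held a probe past 2-fold.

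In Atmp38dKO against WT the 3 higher probes were Topbp1 probe 3, Tti1 probe 2 at 2.01 ± 0.23 and Dclre1c probe 3 at 1.79 ± 0.34, each with another probe of its gene below WT. Between the mutants, Brca1 probe 3 read 51.1 ± 5.32 in AtmsKO and 176 ± 17.6 in Atmp38dKO, 1.49 ± 0.21 apart, with its other probes at -0.32 and -0.29. Trp53bp1 probe 5 was also higher on Atmp38dKO, by 1.37 ± 0.23. Lower there were Kat2a probe 1 (3.99-fold), Ruvbl2 probe 1 (-1.36 ± 0.21) and Rfwd2 probe 2 (-1.01 ± 0.32).

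**Figure D5:**
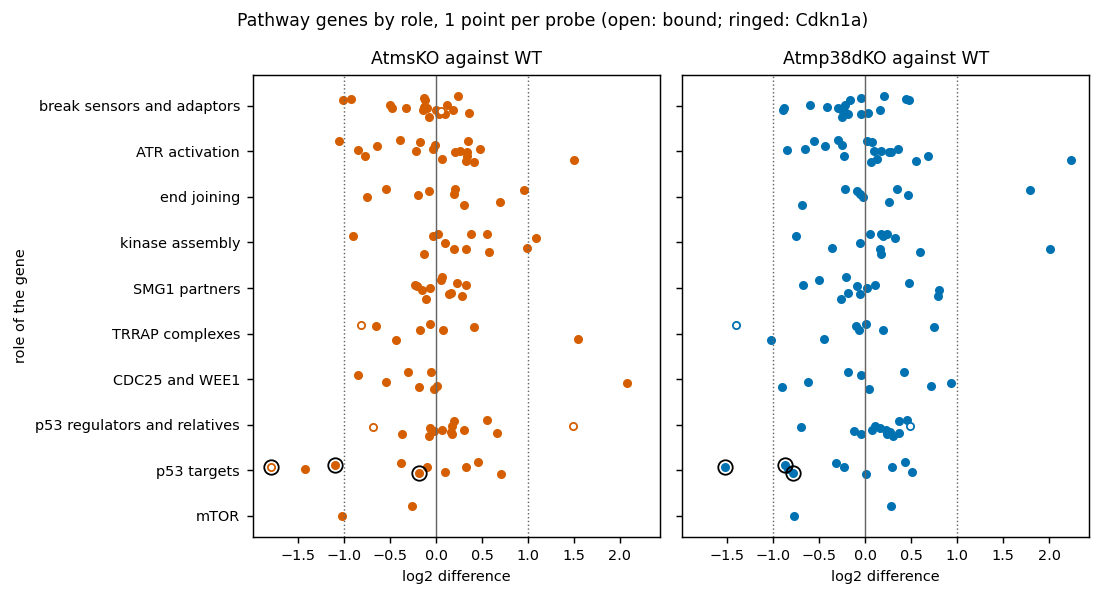
Log2 difference from WT of each pathway probe, grouped by role, on the AtmsKO (left) and Atmp38dKO (right) arrays; open points are bounds, ringed points are Cdkn1a, dotted lines mark 2-fold, and vertical scatter within a role carries no value. All 3 Cdkn1a probes lie left of 0 in both panels, whereas most roles are spread on both sides of it.

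Likeness to Atm was measured as the distance between the differences of both mutant arrays from WT, taking the brightest probe of Atm, which is probe 1, and of each of 59 comparable pathway genes. Gtse1 was nearest, at 0.72 log2 units, followed by Cdkn1a at 0.96 and Atrip, the partner of ATR, at 1.02. Atrip read 136 ± 13.7, 75.7 ± 7.70 and 134 ± 13.5, lower on AtmsKO by a log2 difference of -0.77 ± 0.21 and near WT on Atmp38dKO at -0.24 ± 0.20. Measured from Atm probe 2 instead, a choice made after the values were seen, Gtse1 lay at 0.98 and Cdkn1a at 1.29, Tti1 came next, and Atrip was at 1.80, so the place after Cdkn1a depends on the Atm probe. These distances rest on 3 arrays, of which WT enters both differences, and are given as a description.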

How the data were processed

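RNA of sorted LT-HSCs (CD150+ CD48- Flt3- CD34- lineage- Sca-1+ c-Kit+, and CD41- in the study's methods) was labelled with Cy3 and hybridised by a contractor to 1-colour Agilent arrays, 1 per genotype, on 1 slide in 1 scan. The deposited files hold the intensity of each spot from Agilent Feature Extraction 11.5.1.1 (per the submitters' processing notes), already background-subtracted by the authors' contractor, with flags, and a table of log2 values that the authors deposited. Against the scanner values, that table proved to be log2 of the same intensity minus the array's 75th percentile, within 0.02 of a constant offset for 99.8 to 99.97% of probes, with column medians of -2.18, -2.22 and -2.17 (WT, AtmsKO, Atmp38dKO). It served as an alternative.

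From the intensities, control and outlier spots were left out, the spots of a probe were averaged, and log2 of the signal minus the array's 75th percentile was compared between arrays. A probe was well above background when over 50% of its spots were flagged so. Errors combine the software errors of both signals. With 1 array per genotype no test was possible, and their number limits the precision. Calls need a 2-fold difference. The members, the pathway, proliferation and marker lists and the tests were chosen with earlier results of these data known. Named from the pathway list were Mtor, genes with a probe past 2-fold whose other probes lay on the same side (up to 5 per comparison and direction), and the 3 nearest to Atm. Other pathway genes with a probe past 2-fold, p53 targets above 0 and Ccnb1 were named after their values were seen. All 21 RefSeq accessions matched their symbol in the RefSeq gene table. Alternatives were another scaling, quantile normalization and normexp (offset 50, limma 3.58.1, R 4.3.3), no floor, stricter detection, 1.5-fold and 4-fold thresholds and the brightest probe per gene. The procedure was tested on simulated data with 4-fold changes and noise of the software error alone. That noise leaves out variation between arrays, so the test checks the calling only. Not analysed here were antisense signals and isoforms.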

Additional observations from a re-analysis of the deposited data

How the results depend on the processing

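No paired analysis was possible because every genotype has a single array, so that no replicate could be left out either. Directions of the Atm differences held under every alternative. The authors' log2 values, the median of probes well above background as reference, and quantile normalization kept the Atm differences, the medians and the counts of members, pathway list and all probes close to the values given. Under normexp background correction with an offset of 50, the Atm log2 differences at probes 1 and 2 were -0.81 and -0.86 in AtmsKO against WT and 0.65 and 0.32 in Atmp38dKO against AtmsKO, and probe 2 gave -0.55 in Atmp38dKO against WT. Member probes past 2-fold then numbered 0 higher and 0 lower in all 3 comparisons, pathway probes 2 higher and 0 lower (AtmsKO against WT), 0 and 0 (Atmp38dKO against WT) and 0 and 1 (between mutants), and all probes 143 and 135, 110 and 193, and 85 and 174. Atr probe 8 ranged from 0.66 to 1.33 (AtmsKO against WT) and from 0.71 to 1.41 (Atmp38dKO against WT), Mdm4 probe 2 from -1.04 to -0.80 between the mutants and Cdkn1a probe 3 from -1.11 to -0.78 in AtmsKO against WT, under settings chosen for these genes after their values were seen. In every such range the value nearest 0 was from normexp.

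Counts are given as higher and lower, in the order AtmsKO against WT, Atmp38dKO against WT, Atmp38dKO against AtmsKO. Without the floor for dim signals, all probes gave 3304 lower in AtmsKO against WT, and 3494 and 3983 higher in the comparisons of Atmp38dKO with WT and AtmsKO. Restricted to probes well above background on all 3 arrays, members had 1 higher in each comparison with WT, the pathway list had 1 lower in Atmp38dKO against WT, and all probes had 1188 and 1223, 1285 and 1305, and 1192 and 1117. At 1.5-fold, members had 3 and 4, 6 and 4, and 5 and 3, pathway probes 10 and 16, 10 and 18, and 10 and 13, and all probes 4742 and 5045, 5612 and 5560, and 5129 and 4475. At 4-fold, members had 1 and 1, 0 and 0, and 0 and 0, pathway probes 1 and 0, 2 and 0, and 0 and 0, and all probes 356 and 366, 277 and 425, and 215 and 377. With the brightest probe per gene, members had 1 and 1, 1 and 0, and 1 and 0. Medians of the member differences moved by less than the error of a single probe under every alternative, but that error exceeds the medians themselves. Their sign did not hold throughout. With the brightest probe per gene they were -0.03, -0.11 and -0.04, and under normexp 0.006, -0.04 and -0.04. A mean in place of the median gave -0.02, 0.13 and 0.14, and the other settings kept all 3 above 0. Other thresholds and fewer probes change counts by construction, and for the other settings the cause was not tested.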
